A study of Mus musculus with 3 samples.

Results

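The cells described here are 851 shallow droplet barcodes from 3 R26-SHH rhabdoid tumours of the mouse brain that carried transcripts of mature neurons. They were chosen on measured values. A barcode qualified when it held at least 700 and under 3000 unique molecular identifiers (UMIs, each standing for 1 captured transcript), had at most 15% of its UMIs from mitochondrial genes and held a UMI in at least 3 of 8 neuronal genes. Those genes were Snhg11, Meg3, Gria2, Gad2, Celf4, Syt4, Myt1l and Epha5. A barcode also needed a UMI in fewer than 2 of the oligodendrocyte precursor genes Pdgfra, Lhfpl3 and Tnr and in fewer than 2 of the myeloid genes C1qa, Tyrobp and Ctss. These 14 genes are described below and not tested. The rule took 201, 636 and 14 cells in tumours 1, 2 and 3, out of 28380 barcodes in all, and out of 2402, 2763 and 1480 barcodes of the same depth range and mitochondrial limit. The remaining 5794 barcodes of that range are called the other shallow cells. Barcodes of 3000 UMIs or more with a UMI of Stmn2, a tubulin regulator gene of young and growing neurons, are called the Stmn2-positive deep cells and numbered 703, 694 and 186.

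Neurons carry signals through voltage-gated sodium, calcium and potassium channels. They pass them on at synapses, where a presynaptic terminal releases vesicles and receptors on the postsynaptic side respond. A newborn neuron leaves the cell cycle, switches off progenitor genes such as Sox2 and the Notch targets Hes1 and Hes5, passes through a stage marked by Dcx, and then builds the machinery of excitability. REST is a repressor that keeps many of those genes silent outside neurons, and SMARCB1 is a core subunit of the SWI/SNF (BAF) chromatin remodelling complexes, some of whose subunits are exchanged as neurons mature. Rhabdoid tumours arise when SMARCB1 is lost.

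All 3 tumours came from Rosa26-CreERT2::Smarcb1flox/flox mice on a mixed 129/SV and C57BL/6 background, in which tamoxifen activates a Cre recombinase expressed from the Rosa26 locus and therefore not restricted to a cell type. The fresh tumours were dissociated without a sort, and 10x droplet libraries were counted from the 3′ end of transcripts. There was 1 group and no normal brain, so that the comparisons below are between cell classes within tumours, with 1 sum of counts per class and tumour. The matrices held 6428 to 12467 barcodes and 40151353 to 79529921 UMIs per tumour, and between 37.3 and 50.4% of the barcodes of 700 to under 3000 UMIs lay over the mitochondrial limit.

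The deleted gene gave few UMIs in the neuronal shallow cells, at a depth that gives a wide interval. Smarcb1 (chr10:75896769-75921617 on GRCm38) gave 0, 4 and 0 UMIs in the member sums of 354155, 1028236 and 22960 UMIs. The upper limits of the exact 95% Poisson intervals were 10.4, 9.96 and 161 CPM (counts per 1000000 UMIs), and with 0 counts a floor of 3 counts stands at 8.47 CPM in tumour 1 and 131 CPM in tumour 3, which is above the level in any class of that tumour. Pooled over tumours the level was 2.85 CPM in the members (0.776 to 7.29), 8.96 CPM in the other shallow cells (7.05 to 11.2), 3.49 CPM in the Stmn2-positive deep cells (2.71 to 4.42) and 18.1 CPM in deep myeloid cells (16.1 to 20.3), barcodes of 3000 UMIs or more with at least 2 of the 3 myeloid genes and no Stmn2 UMI. Sox2-positive deep cells stood at 1.85 CPM (1.60 to 2.13) and deep cells that pass the 8-gene rule at 1.08 CPM (0.708 to 1.59), both below the members' value and within its interval. Poisson intervals cover counting error only. Against the deep myeloid cells, in which 22.1, 14.4 and 15.1 CPM were counted, Smarcb1 was lower in the quasi-likelihood test of edgeR, with p-values adjusted by Benjamini-Hochberg (log2 difference −3.23, adjusted p = 0.00106), with a lower level in tumours 1 and 2, while the depth of tumour 3 allows no direction there. In that comparison 29.7% of the genes tested were called lower. The log2 difference was −2.44, −9.37 and −3.31 without tumours 1, 2 and 3, and the second of these rests on members with 0 UMIs. Neither the other shallow cells (adjusted p = 0.128) nor the Stmn2-positive deep cells (adjusted p = 0.642) could be told apart from the members, and with cells of other types taken out of the other shallow cells that difference changed sign (0.25, adjusted p = 0.932). With them taken out of both classes, a choice made after the data were seen, it did not (−0.85, adjusted p = 0.788). The sources used here do not state which exons are floxed, so that whether the 3′ end counted here lies in the deleted stretch is not known.

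**Figure D1:**
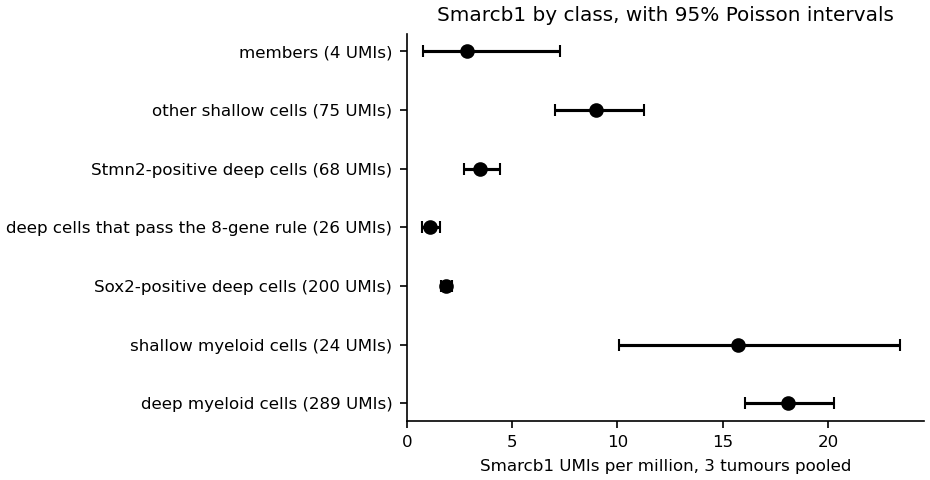
Smarcb1 in CPM, pooled over the 3 tumours, for the neuronal shallow cells and 6 other cell classes, with exact 95% Poisson intervals as bars. The members stand at 2.85 CPM, below the deep myeloid cells at 18.1 CPM and with an interval that spans the Stmn2-positive deep cells at 3.49 CPM.

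The share of shallow barcodes that met the rule differed between tumours, with 8.37% of them in tumour 1 (7.29 to 9.55, exact binomial 95% interval), 23.0% (21.5 to 24.6) for tumour 2, but 0.946% (0.518 to 1.58) for tumour 3. These intervals cover counting error only. Free RNA in a droplet can give the same transcripts, so the share was set against shallow myeloid cells, which should lack neuronal genes and held a median of 1314.5, 1460 and 1405 UMIs. Of these, 6 of 526 (1.14%, 0.420 to 2.47), 48 of 339 (14.2%, 10.6 to 18.3) and 0 of 155 (up to 2.35%) held UMIs in 3 of the 8 genes. The members' share was above that background in tumours 1 and 2, whereas in tumour 3 it lay within what 0 of 155 allows. Both shares count the genes of the rule and are a description, and how many members of tumour 2 hold these UMIs from free RNA was not tested. With every cell thinned to 700 UMIs the rule took 123, 427 and 8 cells, which is 5.12, 15.5 and 0.541% of the shallow cells. Among shallow barcodes over the mitochondrial limit, 6.77, 20.2 and 1.14% passed the gene rule. The order of the tumours was the same in each of these counts. Tumour 3 added 14 cells with 22960 UMIs, and its values for single genes rest on few counts, with 1 UMI standing for 43.6 CPM.

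**Figure D2:**
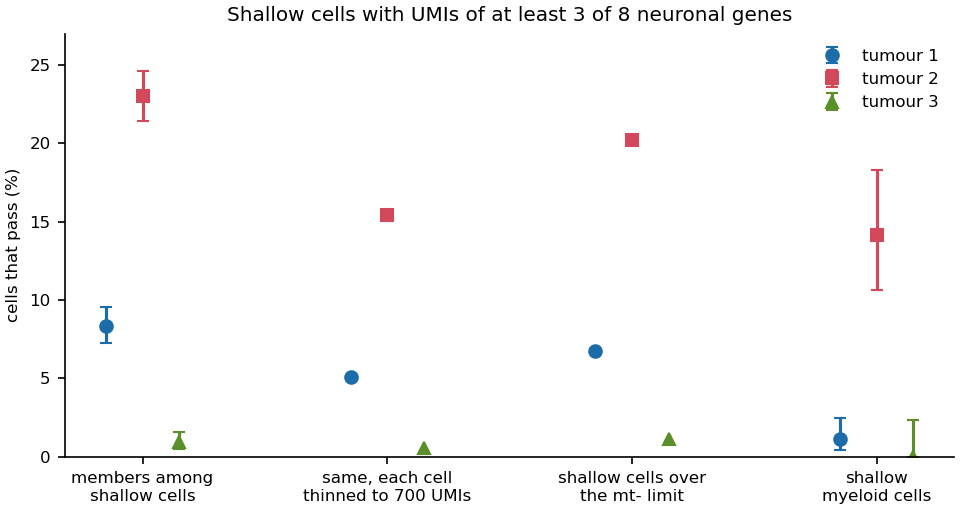
Share of shallow cells (in percent) that held UMIs in at least 3 of the 8 neuronal genes in each tumour, for the cells of the rule with exact 95% binomial intervals, the same cells thinned to 700 UMIs, shallow barcodes over the mitochondrial limit, and shallow myeloid cells with their intervals. Tumour 2 was highest in each set, at 23.0% for the rule and 14.2% for shallow myeloid cells.

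Among the genes of the rule, the imprinted long non-coding RNA Meg3, seen in 82.1, 90.6 and 57.1% of the members, and the AMPA receptor subunit gene Gria2, seen in 80.6, 79.6 and 64.3%, carried most memberships. Celf4, which encodes an RNA-binding protein of excitable cells, was seen in 76.6, 71.2 and 57.1%, and the neuronal transcription factor gene Myt1l in 65.7, 50 and 57.1%. Gad2, which encodes a GABA-synthesising enzyme, was seen in 11.4, 22.8 and 0%. The levels that chose the cells were 8767, 10998 and 5967 CPM for Meg3, against 397, 1272 and 88.7 CPM in the other shallow cells, and 1629, 1912 and 1481 CPM for Gria2, against 142, 441 and 59.4 CPM. Most members were near the threshold, with exactly 3 of the 8 genes in 87, 260 and 9 cells and exactly 4 in 55, 183 and 4. Just outside it, 192, 463 and 33 cells held exactly 2. Map2, a dendritic microtubule gene that the rule did not use, stood at 548, 476 and 325 CPM just outside and at 899, 633 and 688 CPM just inside. Snap25, a synaptic gene that the rule did not use either, stood at 81.5, 112 and 18.1 CPM just outside and at 158, 119 and 0 CPM just inside, so that it differed little in tumour 2 and was not seen inside in tumour 3.

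The label was checked against pan-neuronal genes, whose levels are given below. Rbfox3, which encodes the NeuN antigen of mature neurons, was at 22.6, 24.3 and 43.6 CPM in the members, 9.17, 16.8 and 35.6 CPM in the other shallow cells and 15.4, 20.5 and 35.2 CPM in the Stmn2-positive deep cells, and was called in neither comparison (edgeR adjusted p = 0.324 and 0.812). A Rbfox3 UMI was seen in 3.98, 3.62 and 7.14% of the members. Stmn2 UMIs were in 27.4, 24.8 and 21.4%. In addition, 46, 325 and 2 members (22.9, 51.1 and 14.3%) held UMIs in at least 2 markers of another cell type, so that a member is a droplet with these transcripts and was not shown to be a single cell. The deep class has limits of its own, since 48.4, 54.5 and 42.5% of its cells held a single Stmn2 UMI and 62, 129 and 9 held at least 2 of the 3 myeloid genes.

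Quality measures differed between the classes. Median UMIs per cell were 1745, 1337 and 9930 in tumour 1 for members, other shallow cells and Stmn2-positive deep cells, 1523.5, 1284 and 8263 in tumour 2 and 1682.5, 1238 and 19336.5 in tumour 3. Mitochondrial genes took 9.0, 9.08 and 5.09% of the members' UMIs in tumours 1, 2 and 3, against 6.53, 7.99 and 4.82% in the other shallow cells and 4.63, 5.12 and 4.19% in the deep cells. The members had the highest share of summed UMIs in each tumour, but the median member of tumour 3 held 2.67%, below the medians of 2.98% in the other shallow cells and 3.64% in the deep cells. Ribosomal protein genes took 7.85, 7.38 and 8.73% in the members, 15.7, 10.3 and 15.9% in the other shallow cells and 18.3, 15.5 and 18.2% in the deep cells. The nuclear RNA Malat1 took 10.3, 8.64 and 5.25%, against 7.36, 9.30 and 3.73% in the other shallow cells and 4.52, 5.01 and 2.60% in the deep cells. Other long non-coding RNAs took 4.00, 2.94 and 6.52%, against 2.67, 2.53 and 5.31% in the other shallow cells and 1.51, 1.33 and 1.77% in the deep cells. The other shallow cells were thus also above the deep cells in both. The members were thus poorest in ribosomal protein transcripts and, by these summed shares, richer in non-coding RNA and mitochondrial UMIs than the deep cells in all 3 tumours. The part of these shares in the gene differences below was not tested.

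**Figure D3:**
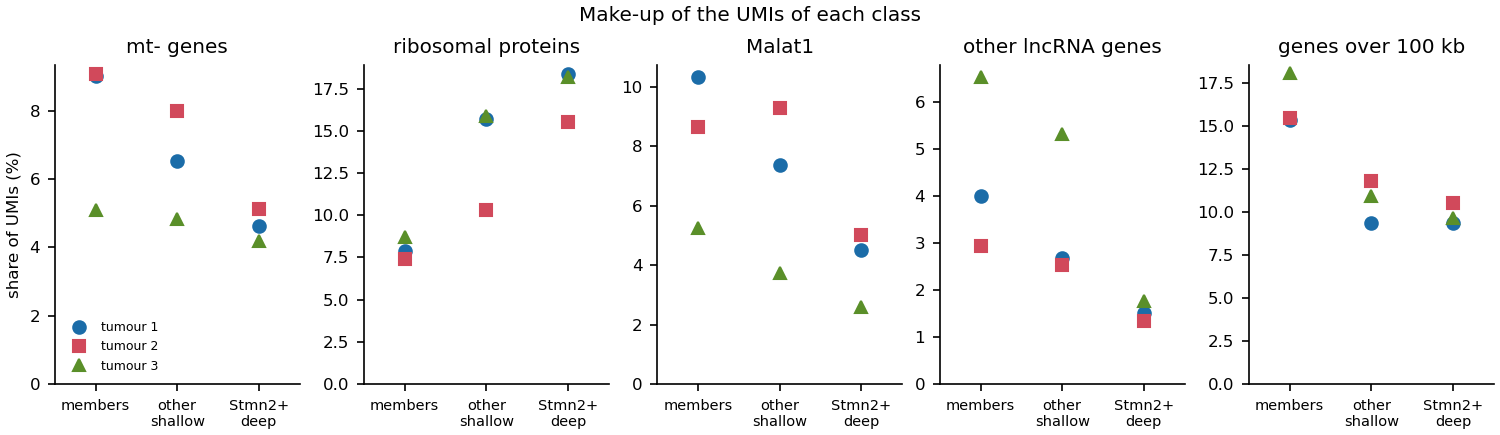
Share of UMIs (percent) from mitochondrial genes, ribosomal protein genes, Malat1, other long non-coding RNAs and genes spanning over 100 kb in each cell class, with 1 point per tumour. Ribosomal protein genes took 7.38 to 8.73% in the neuronal shallow cells and 15.5 to 18.3% in the Stmn2-positive deep cells.

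Outside the genes of the rule, 14518 genes could be tested against the other shallow cells. By edgeR, with the tumour as a block, 2646 of them (18.2%) were called at an adjusted p under 0.05, of which 1057 (7.28% of those tested) were higher in the members and 1589 (10.9%) lower. Against the Stmn2-positive deep cells, 4928 of 14517 genes (33.9%) were called, with 2131 (14.7%) higher and 2797 (19.3%) lower. The median log2 difference over all tested genes was −0.12 and −0.14. Scaling by library size alone moved these medians to 0.10 and 0.14 and turned the split to 1775 higher and 1081 lower in the first comparison and to 3133 and 1840 in the second, so that counts are read below by gene list and direction. Leaving out tumour 1 left 219 genes higher and 158 lower against the other shallow cells, leaving out tumour 2 left 381 and 634. Against the deep cells, 1049 and 801 genes were called higher without tumours 1 and 2. Both comparisons use the same member sums and are given side by side, not as support for each other.

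Genes of neuronal identity and the neuronal cytoskeleton were higher than in the other shallow cells. Of 13 tested, 9 were higher and none lower, with a median log2 difference of 1.29. Map2 was at 898, 727 and 784 CPM in the members, 244, 335 and 179 CPM in the other shallow cells and 360, 351 and 225 CPM in the Stmn2-positive deep cells. Members and others did not overlap, and Map2 was higher by 1.32 ± 0.19 on the log2 scale than in the other shallow cells (SE, adjusted p = 0.000412) and by 0.94 ± 0.19 than in the deep cells (adjusted p = 0.00139). After thinning, Map2 UMIs were in 41.3, 35.4 and 35.7% of the members and in 5.32, 17.4 and 2.58% of shallow myeloid cells. The RNA-binding protein gene Elavl3, at 237, 266 and 305 CPM against 40.4, 97.2 and 20.5 CPM, was higher by 1.97 ± 0.31 (adjusted p = 0.000712), and the axonal tau gene Mapt by 1.44 ± 0.23 (adjusted p = 0.000814). The neurofilament gene Ina (1.96 ± 0.45, adjusted p = 0.00721), the neuronal tubulin gene Tubb3 (1.34 ± 0.39, adjusted p = 0.026) and Stmn2 (1.29 ± 0.28, adjusted p = 0.00728) were higher as well. Stmn2 was at 294, 269 and 131 CPM, against 86.5, 136 and 39.5 CPM, and below the 382 to 426 CPM of the deep cells that were chosen by it. Against the deep cells only Map2 and Mapt were called among 12 tested, and the list's median was −0.04. Without tumour 1, 3 genes were called higher against the other shallow cells, and Ina (1.95, adjusted p = 0.105), Tubb3 (1.12, adjusted p = 0.207) and Stmn2 (1.16, adjusted p = 0.113) were not among them. Ina was not called without tumour 2 either (2.09, adjusted p = 0.134).

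Genes of young, migrating neurons gave a mixed picture. Against the other shallow cells 4 of 12 were higher and none lower, with a median of 0.65, and without tumour 1 only 1 was higher. With cells of other types taken out of the other shallow cells, 3 were higher and 1 lower (median 0.29), and with them taken out of both classes 2 were higher and 1 lower (median 0.30). Dcx (chrX:143855842-143933311), a microtubule gene of migrating neuroblasts, was at 229, 253 and 87.1 CPM in the members, 37.6, 64.7 and 8.28 CPM in the other shallow cells and 60.3, 76.4 and 56.9 CPM in the deep cells. By CPM it was higher in 3 of 3 tumours against both, with differences of 2.27 ± 0.33 (adjusted p = 0.000392) and 1.24 ± 0.33 (adjusted p = 0.0082). The neurogenic transcription factor gene Neurod1 was higher by 2.5 ± 0.57 than in the other shallow cells (adjusted p = 0.00718) in 2 of 3 tumours, and Nhlh1, another gene of its kind, by 3.52 ± 1.02 (adjusted p = 0.0252) at a pooled level of 6.4 CPM. Against the deep cells 4 genes of the list were lower and Dcx alone was higher, with a median of −0.58. Those lower were the surface antigen gene Cd24a (−1.36 ± 0.23, adjusted p = 0.000417) and the transcription factor genes Sox4 (−1.10), Pou3f2 (−1.08) and Sox11 (−0.82). Sox11 was at 2445, 1641 and 697 CPM in the members and 2457, 2370.5 and 1883 CPM in the deep cells, with the gap largest in tumour 3. The comparison of Dcx with the deep cells was not called without tumour 1 (0.95, adjusted p = 0.146) or tumour 2 (1.18, adjusted p = 0.0669), that of Sox11 without tumour 2 (−0.76, adjusted p = 0.18) or tumour 3 (−0.50, adjusted p = 0.0792), and that of Neurod1 with the other shallow cells without tumour 1 (1.89, adjusted p = 0.192). Nhlh1 was not called without tumour 1 (3.72, adjusted p = 0.0923) or tumour 2 (2.73, adjusted p = 0.293).

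Presynaptic genes were higher in both comparisons, with 11 of 18 higher and none lower against the other shallow cells (median 1.47) and 11 higher and 1 lower against the deep cells (median 1.06). Snap25 (chr2:136713453-136782428), a SNARE gene of vesicle fusion, was at 198, 159 and 43.6 CPM in the members, 47.1, 75.9 and 9.74 CPM in the other shallow cells and 36.3, 59.8 and 20 CPM in the deep cells. The last member value is 1 UMI. Snap25 was higher by 1.47 ± 0.27 (adjusted p = 0.00217) and 1.49 ± 0.27 (adjusted p = 0.00075). Syt1 (chr10:108497650-109010982), which encodes the calcium sensor of release, was at 144, 160 and 305 CPM against 32.7, 53.2 and 78.4 CPM in the other shallow cells and 52.6, 69.6 and 122 CPM in the deep cells, higher by 1.59 ± 0.20 (adjusted p = 0.000146) and 0.95 ± 0.19 (adjusted p = 0.00128). The members were above both classes in every tumour for both genes. The active-zone genes Rims1 and Unc13a were higher by 2.25 ± 0.35 (adjusted p = 0.000642) and 2.04 ± 0.32 (adjusted p = 0.000801) than in the other shallow cells. Nrxn3 (chr12:88722876-90334935), a presynaptic adhesion gene, was at 260, 292 and 87.1 CPM against 46.8, 70.6 and 23.9 CPM and 56.1, 69.1 and 15.7 CPM, a difference of 1.92 ± 0.20 in both comparisons (adjusted p = 3.99e-05 and 1.43e-05). The complexin gene Cplx2 was the 1 that was lower than in the deep cells (−0.65, adjusted p = 0.0311). Without tumour 1 or tumour 2, 6 presynaptic genes were called higher than in the deep cells. Snap25 was not called without tumour 1 (1.24, adjusted p = 0.0653, and 1.01, adjusted p = 0.0589), and Cplx2 not without tumour 1 (−0.78, adjusted p = 0.0947) or tumour 2 (−0.47, adjusted p = 0.439).

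Postsynaptic genes followed the same direction. Of 16 genes for glutamate receptors and their scaffold, 9 were higher than in the other shallow cells (median 1.27) and 13 higher than in the deep cells (median 1.70), with none lower in either. The NMDA receptor subunit gene Grin2b (chr6:135713233-136173511) was at 167, 189 and 87.1 CPM in the members, 14.7, 31.9 and 24.4 CPM in the other shallow cells and 22.5, 43.4 and 22.6 CPM in the deep cells. No value of the members reached down to either class, and Grin2b was higher by 2.63 ± 0.26 (adjusted p = 2.88e-05) and 2.23 ± 0.24 (adjusted p = 2.37e-05). The obligatory NMDA subunit gene Grin1 was higher by 2.34 ± 0.44 (adjusted p = 0.00252) and 2.70 ± 0.43 (adjusted p = 0.00028), in tumours 1 and 2, with 0 UMIs in tumour 3. The AMPA receptor subunit gene Gria4, at 53.6, 37 and 174 CPM against 8.87, 11.2 and 7.8 CPM, was higher than in the other shallow cells by 2.12 ± 0.37 (adjusted p = 0.00152), but was not called without tumour 1 (2.07, adjusted p = 0.0525). Counts in this list were sensitive to the tumours used, with 3 higher than in the other shallow cells when tumour 1 or tumour 2 was left out, and 5 higher than in the deep cells without tumour 2.

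Of 11 genes for GABA synthesis, transport and receptors, 4 were higher than in the other shallow cells (median 1.31) and 6 higher than in the deep cells (median 1.08). The neuronal potassium-chloride cotransporter gene Slc12a5, which sets the chloride gradient of mature neurons, was at 33.9, 76.8 and 0 CPM in the members, 5.81, 13.5 and 1.95 CPM in the other shallow cells and 5.47, 18.5 and 1.96 CPM in the deep cells, higher by 2.27 ± 0.33 (adjusted p = 0.000432) and 2.02 ± 0.31 (adjusted p = 0.00023) in 2 of 3 tumours. Genes that make and load GABA were not called, with Gad1 at 2.82, 30.1 and 0 CPM and the vesicular transporter gene Slc32a1 at 16.9, 14.6 and 0 CPM. Without tumour 2 none of this list was called against the other shallow cells, with Slc12a5 at 2.24 (adjusted p = 0.0787), and 2 of the list were called against the deep cells without tumour 1 or tumour 2.

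Few cells showed a transmitter. A UMI of Gad1, Gad2 or Slc32a1 was in 27, 170 and 0 members (13.4, 26.7 and 0%), of which Gad2 is a gene of the rule. A vesicular glutamate transporter UMI was in 6, 15 and 0 (2.99, 2.36 and 0%), both kinds were in 0, 5 and 0, and neither was in 168, 456 and 14. In shallow myeloid cells 1.33, 7.37 and 0.645% held a UMI of the GABA genes. Slc17a6, which encodes a vesicular glutamate transporter, was at 16.9, 12.6 and 0 CPM, and Slc17a7, which encodes another, had 2 UMIs in all members. Of 5 tested genes of glutamatergic neurons edgeR called none in either comparison, and 1 and 0 had an unadjusted p under 0.05. The absence of either kind of transmitter gene from most members is not informative on its own at a median of 1523.5 to 1745 UMIs.

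Most genes of voltage-gated channels were higher in both comparisons. Of 16, 13 were higher than in the other shallow cells with a median of 1.73, and 12 were higher than in the deep cells with a median of 1.85, and none was lower. Scn2a (chr2:65620771-65767447), a sodium channel gene of axons, was at 161, 176 and 305 CPM in the members, 21.4, 38.8 and 13.2 CPM in the other shallow cells and 27.5, 40.8 and 18 CPM in the deep cells. The classes did not overlap, and Scn2a was higher by 2.49 ± 0.24 (adjusted p = 2.88e-05) and 2.18 ± 0.23 (adjusted p = 1.69e-05). Cacna1b (chr2:24603887-24763152), which encodes the N-type calcium channel of terminals, was at 104, 127 and 87.1 CPM against 4.59, 18.1 and 3.41 CPM and 9.7, 17.6 and 9.13 CPM, a difference of 3.38 ± 0.35 (adjusted p = 3.08e-05) and 2.71 ± 0.33 (adjusted p = 4.53e-05). The calcium channel subunit gene Cacna2d1 was higher than in the other shallow cells by 2.5 ± 0.34 (adjusted p = 0.000282). With 1 tumour left out, 10 to 12 channel genes were called higher than in the other shallow cells, and 11 or 12 higher than in the deep cells.

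A calcium channel led the ranking by size. Of 1057 genes higher than in the other shallow cells, 699 were higher in 3 of 3 tumours and held at least 30 UMIs in the members, with mitochondrial and ribosomal protein genes left out, and the largest difference among these was in Ryr2 (chr13:11553102-12106945), a calcium release channel gene of the endoplasmic reticulum, at 59.3, 50.6 and 43.6 CPM against 1.22, 4.93 and 0 CPM (4.22 ± 0.56, adjusted p = 0.000242). The adhesion gene Cntnap5a (3.44 ± 0.50, adjusted p = 0.000413) and Cacna1b were also among the first 8, as was L1cam, an axonal adhesion gene whose exons overlap Arhgap4 on the same strand (3.07 ± 0.33, adjusted p = 4.06e-05). So were the non-coding or uncharacterised genes Gm44644 (3.66 ± 0.33), Gm26906 (3.46 ± 0.34) and 5330417C22Rik (3.34 ± 0.48). Gm26906 lies across exons of the rule gene Meg3 on the other strand, and its independence of the rule was not tested. Since the ranking takes the largest differences, these sizes are a description of the extreme end and not an estimate for channels in general. In tumour 3 a gene can be higher on a single UMI, as Ryr2 was.

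**Figure D4:**
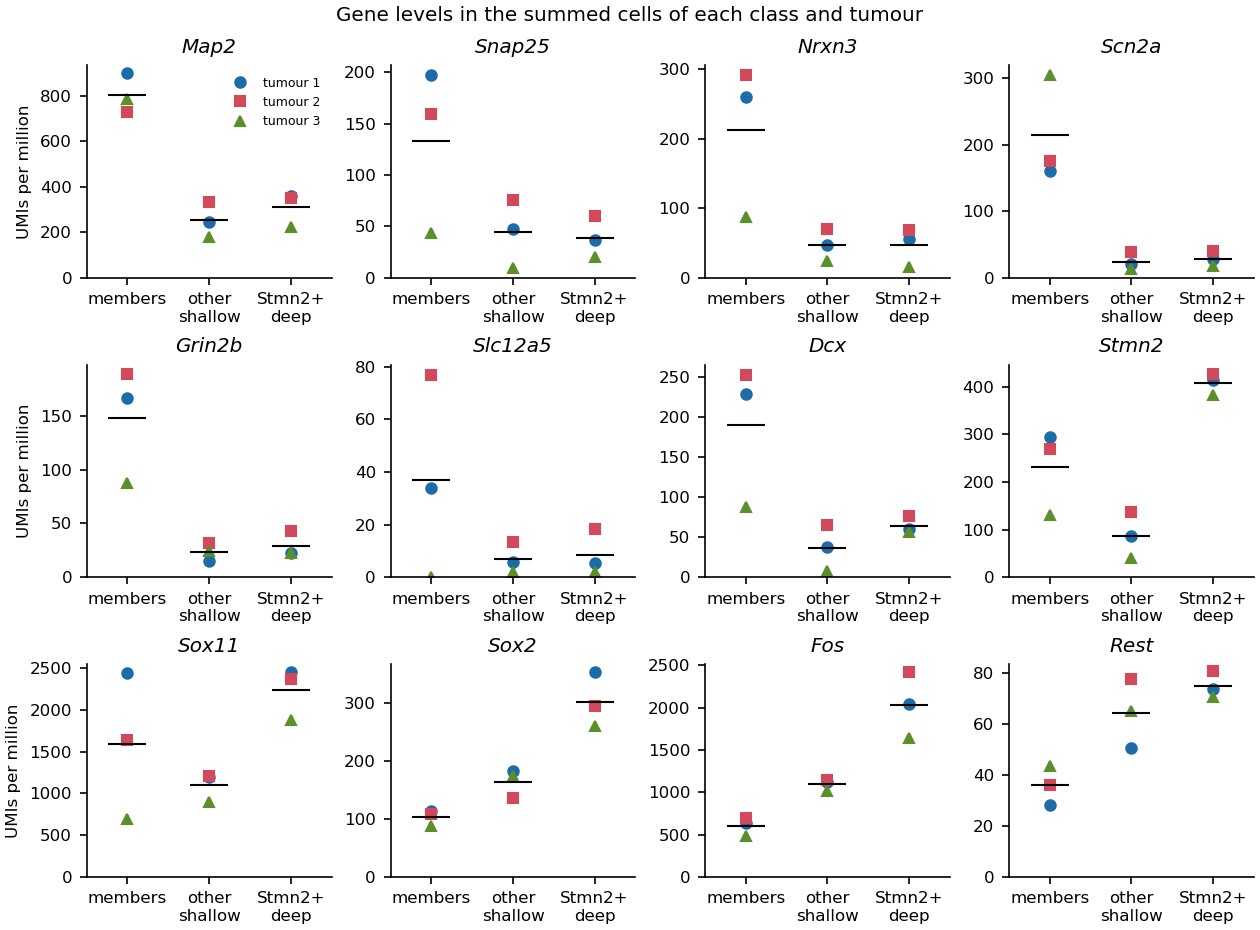
Levels of 12 genes in CPM, with 1 point per tumour and the mean as a black bar, in the neuronal shallow cells, the other shallow cells and the Stmn2-positive deep cells. The members lie above both other classes in all 3 tumours for Map2, Scn2a, Grin2b and Nrxn3, and below both for Sox2, Fos and Rest. The Rest value of the members in tumour 3 is 1 UMI and gives no direction.

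Adhesion genes with long gene bodies, which set up contacts between neurons, gave 12 of 16 higher in both comparisons and none lower, with medians of 1.34 and 1.54. Cadm2, a synaptic adhesion gene, was at 90.4, 105 and 87.1 CPM in the members, 32.4, 43.7 and 1.46 CPM in the other shallow cells and 32.8, 49.8 and 12.4 CPM in the deep cells, higher by 1.38 ± 0.33 (adjusted p = 0.0102) and 0.89 ± 0.33 (adjusted p = 0.0435). Cntnap2, a gene of the axonal domain that clusters potassium channels, was at 39.5, 60.3 and 43.6 CPM against 5.5, 11.5 and 11.7 CPM in the other shallow cells, higher by 2.35 ± 0.33 (adjusted p = 0.000318). The ligand gene Nrg3 (3.11 ± 0.65, adjusted p = 0.00465) and the recognition gene Dscam (2.66 ± 0.61, adjusted p = 0.0074) were higher from few counts, and neither was called without tumour 1 (2.57, adjusted p = 0.108, and 1.88, adjusted p = 0.192). Without tumours 1 and 2 the number higher was 4 and 6 against the other shallow cells and 8 and 7 against the deep cells. Cadm2 was called in neither comparison without tumour 1 (1.57, adjusted p = 0.0722, and 0.72, adjusted p = 0.297) or tumour 2 (1.75, adjusted p = 0.0596, and 1.04, adjusted p = 0.221). Genes called higher than in the other shallow cells had a median genomic span of 63.5 kb, against 23.7 kb for all genes tested, and 37.1% of them spanned over 100 kb, against 15%. For genes higher than in the deep cells the median was 38.5 kb and the share 26.3%. Summed over all genes other than those of the rule and Malat1, those over 100 kb took 15.4, 15.5 and 18.1% of the members' UMIs, 9.34, 11.8 and 10.9% in the other shallow cells and 9.38, 10.5 and 9.66% in the deep cells. Whether unspliced nuclear transcripts entered the counts is not stated in the sources used here, and their part in these values was not tested.

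**Figure D5:**
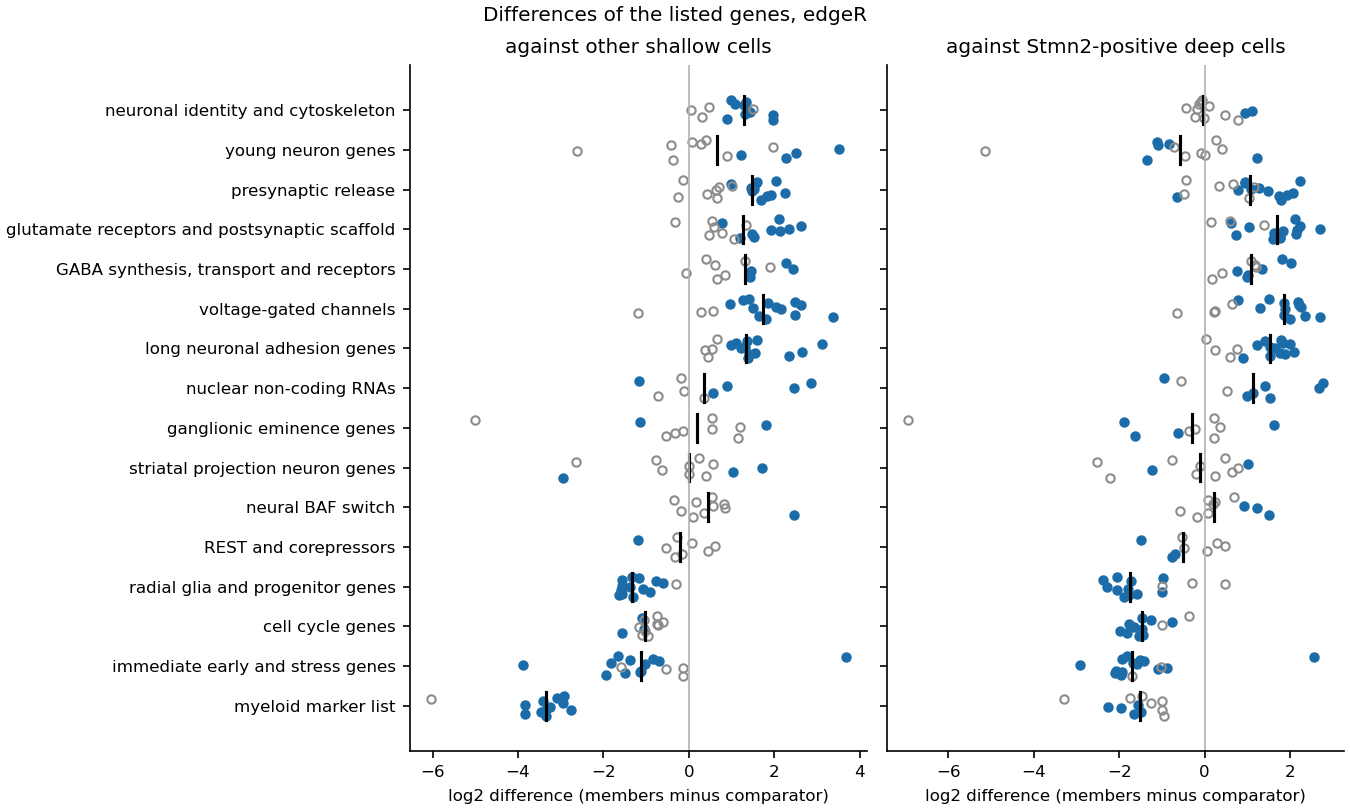
Log2 differences of the genes of 16 lists between the neuronal shallow cells and the other shallow cells, and between them and the Stmn2-positive deep cells. Each point is a gene (filled if called at an edgeR adjusted p under 0.05, open if not) and the black bar is the list's median, which for voltage-gated channels is 1.73 and 1.85 and for radial glia genes −1.32 and −1.75.

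REST, the repressor of neuronal genes, was lower in the members. Rest (chr5:77265491-77286432) was at 28.2, 36 and 43.6 CPM, against 50.5, 77.5 and 64.8 CPM in the other shallow cells and 73.4, 80.6 and 70.4 CPM in the deep cells. The members were below both classes in tumours 1 and 2, while the member value of tumour 3 is 1 UMI and gives no direction. The differences were −1.20 ± 0.22 (adjusted p = 0.00228) and −1.50 ± 0.22 (adjusted p = 0.000166). Against the other shallow cells Rest was not called without tumour 1 (−1.19, adjusted p = 0.0552) or tumour 2 (−1.18, adjusted p = 0.113). Of 8 genes for REST and its corepressors it was the only one called against the other shallow cells (median −0.22), and the corepressor deacetylase genes Hdac1 (−0.77, adjusted p = 0.0317) and Hdac2 (−0.68, adjusted p = 0.00912) were also lower than in the deep cells. Neither deacetylase gene was called without tumour 1 (−0.58, adjusted p = 0.236, and −0.59, adjusted p = 0.163) or tumour 2 (−1.26, adjusted p = 0.0522, and −0.52, adjusted p = 0.27).

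REST binds a DNA element called RE1, whose left part holds the letters TTCAGCACC. The RefSeq promoter table for GRCm38.p6, from 250 bases before to 50 after each start, was searched for these letters on both strands, and 117 of 27025 promoters held them (0.433%). Among genes higher than in the other shallow cells 10 of 773 with a promoter in the table held them (1.29%), against 7 of 1228 genes that were lower (0.570%) and 54 of 10881 tested (0.496%). Of the genes higher than in the deep cells 0.675% held them. The longer form TTCAGCACCNNGGACAG was in 4 of 27025 promoters and in none of the higher genes. Gsx1, which was lower than in the deep cells, held the 9 letters as well. The following windows, shown because they carry these letters in genes that were higher than in the other shallow cells and whose differences are given here, are read along the letters, which are in capitals.
Unc13a, chr8:71671723-71671752, letters on the strand opposite the gene: tcgcTTCAGCACCgggggcgcggacagcgc
Ptprn2, chr12:116485716-116485745, letters on the strand opposite the gene: gagcTTCAGCACCggacagcgccaccggcc
Celsr3, chr9:108825914-108825943, letters on the gene's own strand: tccgTTCAGCACCgtgggcagcacttctgt
Kidins220, chr12:24974833-24974862, letters on the gene's own strand: ccacTTCAGCACCtgcaactcctcccacac
Nsg2, chr11:32000495-32000524, letters on the gene's own strand: ttttTTCAGCACCacgctctggctgaggag
The letters ggacag follow the capitals after 8 letters in Unc13a and after 0 in Ptprn2. A match of letters is a description and not a binding site, and REST binding was not measured.

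These genes were higher by different amounts. Unc13a, a vesicle priming gene, was at 50.8, 45.7 and 174 CPM in the members and 8.56, 14.5 and 7.8 CPM in the other shallow cells. Celsr3, a cadherin gene of axon guidance, was at 84.7, 94.3 and 87.1 CPM against 7.34, 19.1 and 4.39 CPM and was higher by 2.77 ± 0.35 (adjusted p = 0.000166). Kidins220, a scaffold gene of neurotrophin signalling, was at 285, 243 and 479 CPM against 81.6, 110 and 104 CPM and was higher by 1.29 ± 0.17 (adjusted p = 0.000203). Nsg2, a gene of neuronal endosomes, was higher by 1.34 ± 0.22 (adjusted p = 0.00116). Ptprn2, a gene of secretory vesicles, was at 42.4, 33.1 and 0 CPM against 6.12, 13.1 and 3.41 CPM (1.60 ± 0.43, adjusted p = 0.0184). For Unc13a, Celsr3 and Kidins220 the members were above the other shallow cells in every tumour, and for Ptprn2 in 2 of 3.

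Progenitor genes went the other way. Of 14 genes of radial glia and progenitors, 13 were lower than in the other shallow cells (median −1.32) and 11 lower than in the deep cells (median −1.75), with none higher. Sox2 was at 113, 108 and 87.1 CPM in the members, 183, 137 and 174 CPM in the other shallow cells and 354, 295 and 260 CPM in the deep cells, lower by −0.78 ± 0.21 (adjusted p = 0.0191) and −1.72 ± 0.21 (adjusted p = 4.53e-05). The members were lowest in every tumour. A Sox2 UMI was in 14.4, 14.9 and 14.3% of them and in 8.17, 12.4 and 12.3% of shallow myeloid cells, so that in tumours 2 and 3 the share was near that in cells that should lack the gene. The Notch target gene Hes5 was at 16.9, 22.4 and 43.6 CPM against 55.3, 58.2 and 62.4 CPM and 67.5, 54.1 and 45.9 CPM, lower by −1.56 ± 0.44 (adjusted p = 0.0217) and −1.58 ± 0.43 (adjusted p = 0.00997). Hes1 (−1.64, adjusted p = 0.000215), the inhibitor of differentiation gene Id3 (−1.59, adjusted p = 0.000248), the gliogenic factor gene Sox9 (−1.57, adjusted p = 0.00237) and the intermediate filament gene Vim (−1.34, adjusted p = 0.000653) were lower than in the other shallow cells too. Without tumours 1 and 2 the list had 4 and 7 genes lower than in the other shallow cells, and 9 in both cases against the deep cells. Against the other shallow cells Sox2 was not called without tumour 1 (−0.61, adjusted p = 0.287) or tumour 2 (−1.02, adjusted p = 0.0697), nor was Vim without tumour 1 (−1.05, adjusted p = 0.0814). Hes5 was called in neither comparison without tumour 1 (−1.36, adjusted p = 0.0916, and −1.22, adjusted p = 0.052) or tumour 2 (−1.75, adjusted p = 0.176, and −1.76, adjusted p = 0.122).

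Of 12 cell cycle genes 10 were lower than in the deep cells (median −1.46), with 10 at an unadjusted p under 0.05. Against the other shallow cells 3 were lower (median −1.03), with 11 at an unadjusted p under 0.05, and 5 were lower once cells of other types were taken out of the other shallow cells. Mki67, the antigen gene of dividing cells, was at 11.3, 23.3 and 43.6 CPM in the members, 28.4, 25.6 and 67.7 CPM in the other shallow cells and 49, 60.4 and 129 CPM in the deep cells, and was lower than in the deep cells by −1.78 ± 0.29 (adjusted p = 0.000297). The topoisomerase gene Top2a was lower in both comparisons (−1.10 ± 0.30, adjusted p = 0.0191, and −1.46 ± 0.29, adjusted p = 0.00145). The kinase gene Cdk1 was lower than in the other shallow cells (−1.56 ± 0.39, adjusted p = 0.0117) and the centromere gene Cenpf lower than in the deep cells (−1.97 ± 0.34, adjusted p = 0.000473). A UMI of Mki67 or Top2a was in 6.47, 11.8 and 21.4% of the members and in 24.2, 20.3 and 39.2% of the deeper Stmn2-positive cells. In the other shallow cells it was 13.0, 9.17 and 19.5%, so that the members were lower in tumour 1 only. In shallow myeloid cells it was 8.56, 10.0 and 12.3%. Without tumour 1, 4 cell cycle genes were lower than in the deep cells and none lower than in the other shallow cells, with Top2a there at −0.46 (adjusted p = 0.438) and Cdk1 at −0.96 (adjusted p = 0.22).

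Immediate early and stress genes, which respond within minutes to stimulation or handling, were mostly lower in both comparisons. Of 16, 11 were lower, 1 higher and 4 not called against the other shallow cells (median −1.13), and 13 were lower, 1 higher and 2 not called against the deep cells (median −1.69). With cells of other types taken out of the other shallow cells, 4 were lower there (median −0.63). Fos was at 632, 695 and 479 CPM in the members, 1124, 1143 and 1010.5 CPM in the other shallow cells and 2045, 2417.5 and 1640 CPM in the deep cells, lower by −1.13 ± 0.23 (adjusted p = 0.00407) and −2.07 ± 0.23 (adjusted p = 2.8e-05). The nuclear receptor gene Nr4a1, at 33.9, 41.8 and 43.6 CPM against 109, 107 and 110 CPM, was lower by −1.65 ± 0.23 (adjusted p = 0.000346), the stress factor gene Atf3 by −1.95 ± 0.32 (adjusted p = 0.000946) and the heat shock gene Hspa1b by −3.88 ± 0.71 (adjusted p = 0.00207). The higher gene was Npas4 (chr19:4984355-4990316), an activity-dependent transcription factor gene of neurons, at 22.6, 37 and 0 CPM against 1.53, 1.97 and 2.44 CPM and 2.61, 7.42 and 2.39 CPM, higher by 3.67 ± 0.68 (adjusted p = 0.00223) and 2.55 ± 0.58 (adjusted p = 0.0032) in 2 of 3 tumours. Without tumour 1, 3 genes of the list were lower than in the other shallow cells and Fos was not called there (−1.09, adjusted p = 0.107). Without tumour 2 Npas4 was called in neither comparison (3.39, adjusted p = 0.0604, and 2.94, adjusted p = 0.0515).

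Regional identity was less clear. Of 10 genes of the ganglionic eminence, the progenitor zone of striatal neurons and interneurons, 1 was higher and 1 lower than in the other shallow cells (median 0.20) and 1 higher and 3 lower than in the deep cells (median −0.30). With cells of other types taken out of the other shallow cells, the first of these became 1 higher and 2 lower (median −0.11), and with them taken out of both classes 1 higher and 3 lower (median −0.16). The higher gene in both was Dlx6os1, a non-coding RNA of the Dlx5 and Dlx6 locus, at 73.4, 80.7 and 131 CPM against 16.5, 24.6 and 5.36 CPM and 28.7, 19.1 and 4.56 CPM (1.81 ± 0.30, adjusted p = 0.00112, and 1.63 ± 0.29, adjusted p = 0.000594). The homeobox gene Dlx1 was at 87.5, 72 and 87.1 CPM in the members and 71.5, 99.5 and 43.8 CPM in the other shallow cells and was not called there. The homeobox gene Gsx1 was lower than in the deep cells (−1.88 ± 0.35, adjusted p = 0.000816), but was not called without tumour 2 (−1.52, adjusted p = 0.0566). Of 11 striatal projection neuron genes 2 were higher and 1 lower than in the other shallow cells (median 0.01), the higher being the transcription factor genes Isl1, at 96, 95.3 and 43.6 CPM against 18.3, 32.9 and 22.4 CPM (1.71 ± 0.39, adjusted p = 0.00695), and Foxp2 (1.03 ± 0.30, adjusted p = 0.0256). Isl1 was not called without tumour 1 (1.5, adjusted p = 0.109), and Foxp2 not without tumour 1, 2 or 3 (adjusted p = 0.105, 0.179 and 0.054). No gene of that list was called higher by edgeR with cells of other types taken out of the other shallow cells (median −0.17) or of both classes (median −0.13). The dopamine receptor genes Drd1 and Drd2 had 1 and 3 UMIs in all members, and Ppp1r1b, the DARPP-32 gene of striatal neurons, 2. Of 9 interneuron genes 2 were lower than in the other shallow cells (median −1.06), and none by edgeR with cells of other types taken out of the other shallow cells (median −0.42) or of both classes (median −0.62). One was Maf (−1.06, adjusted p = 0.0245), which macrophages also express and which was not called without tumour 1 (adjusted p = 0.19) or tumour 2 (adjusted p = 0.225). Each of these lists had at most 3 genes called in a direction, beside 7.28 to 19.3% of all genes tested. Foxp1, a striatal transcription factor gene, at 192, 142 and 87.1 CPM, was called in neither comparison.

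Of the BAF subunit genes exchanged as progenitors become neurons, the neuronal Actl6b was the one higher than in the other shallow cells. In this list of 10, which holds neuronal subunits and their progenitor counterparts, 1 was higher than in the other shallow cells (median 0.45) and 3 higher than in the deep cells (median 0.22), with none lower. Over all genes tested, 7.28 and 14.7% were higher in these comparisons. Actl6b (chr5:137553517-137569582), which encodes the neuron-specific subunit BAF53b, was at 53.6, 80.7 and 43.6 CPM in the members, 9.17, 14.1 and 1.95 CPM in the other shallow cells and 17.7, 20.1 and 7.39 CPM in the deep cells, higher by 2.47 ± 0.34 (adjusted p = 0.000314) and 1.5 ± 0.32 (adjusted p = 0.00227) and in every tumour. The member value of Actl6b in tumour 3 is a single UMI. The progenitor counterpart Actl6a was at 93.2, 66.1 and 43.6 CPM and was called in neither comparison. Dpf1 (1.23 ± 0.37, adjusted p = 0.0181) and Dpf2 (0.92 ± 0.23, adjusted p = 0.00557), which encode alternative subunits of the same position, were higher than in the deep cells. Neither was called without tumour 1 (1.02, adjusted p = 0.166, and 0.86, adjusted p = 0.0864), nor was Dpf1 without tumour 2 (1.51, adjusted p = 0.108). Of 15 core and ARID subunit genes only Brd9, of the non-canonical complex, was higher than in the other shallow cells, at 302, 267 and 174 CPM against 136, 158 and 131 CPM (0.66 ± 0.18, adjusted p = 0.0197), and the list's median was 0.04. Against the deep cells Smarce1 (−0.96, adjusted p = 0.00137), Smarcc1 (−0.91, adjusted p = 0.0017) and Pbrm1 (−0.56, adjusted p = 0.0413) were lower and Brd9 and Arid2 higher. The 3 lower and 2 higher of 15 are near the 19.3 and 14.7% of all genes tested. So is the 1 gene higher than in the other shallow cells, beside 7.28%. Without tumour 1 or tumour 2, Brd9 was not called against the other shallow cells (0.57, adjusted p = 0.264, and 0.70, adjusted p = 0.151), and Smarcc1 (adjusted p = 0.052 and 0.056) and Pbrm1 (adjusted p = 0.146 and 0.223) not against the deep cells. Nor was Smarce1 without tumour 1 (adjusted p = 0.0738) or Actl6b without tumour 2 (1.39, adjusted p = 0.106) against the deep cells.

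Long non-coding RNA was above the deep cells in the members and, by its summed share, in the other shallow cells too. Of 1019 long non-coding RNAs tested, 346 were higher and 35 lower than in the deep cells (34.0% higher, median 1.08), beside 14.7% higher of all genes tested. Against the other shallow cells 65 were higher and 31 lower (6.38% higher, median 0.15), beside 7.28% higher of all genes tested. Among 9 nuclear non-coding RNAs, 4 were higher and 1 lower than in the other shallow cells and 6 higher and 1 lower than in the deep cells. Miat (chr5:112213228-112229395), a nuclear RNA of neurons, was at 237, 326 and 43.6 CPM against 26, 63.7 and 11.2 CPM and 29.4, 43.2 and 7.83 CPM, higher by 2.46 ± 0.21 (adjusted p = 2.88e-05) and 2.67 ± 0.21 (adjusted p = 1.03e-06). Mirg, a microRNA host transcript of the imprinted domain that also holds Meg3, was higher by 2.86 ± 0.53 (adjusted p = 0.00227), and Mir124a-1hg, the host transcript of a neuronal microRNA, by 0.89 ± 0.25 (adjusted p = 0.0214). Malat1 was called in neither comparison. The paraspeckle RNA Neat1 was lower than in the other shallow cells (−1.17 ± 0.24, adjusted p = 0.00468). Mirg was not called without tumour 1 (2.09, adjusted p = 0.0572), nor Mir124a-1hg without tumour 1 (0.86, adjusted p = 0.167) or tumour 2 (1.05, adjusted p = 0.0979), nor Neat1 without tumour 2 (−0.62, adjusted p = 0.198). The 8 largest differences against the deep cells among genes higher in 3 of 3 tumours were all non-coding, led by C630031E19Rik at 22.6, 28.2 and 87.1 CPM against 0.871, 0.728 and 0.435 CPM (4.85 ± 0.56, adjusted p = 3.2e-05). This gene (chr12:29675628-29686445) lies within the span of the rule gene Myt1l on the other strand, and its independence of the rule was not tested. AC154782.1 was at 147, 174 and 43.6 CPM against 4.48, 11.1 and 0.869 CPM (4.24 ± 0.28, adjusted p = 2.4e-07). For the others, Gm26599, Gm27241, Gm26859, Gm26906, Gm48342 and Gm29237, exons overlap those of another gene on the same or the other strand. Whether that affects their counts was not tested. Rian, Peg13 and Snhg14 were not analysed here.

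Most myeloid, mural, red blood cell and fibroblast markers were lower than in the other shallow cells, while fewer markers of the other types were called. The rule itself removes cells with myeloid and precursor genes. These calls depended on cells of other types among the other shallow cells. With such cells taken out of that class, 1 of 10 mural (median −0.65) and none of 5 fibroblast markers (median −0.62) were lower by edgeR. With them taken out of both classes, a choice made after the data were seen, 1 of 10 mural (median −2.78) and 2 of 5 fibroblast markers (median −2.59) were lower. With such cells taken out of the other shallow cells alone, the medians of the oligodendrocyte (from −2.08 to 0.66), astrocyte (from −0.71 to 1.23), endothelial (from −2.49 to 0.68), oligodendrocyte precursor (from −0.65 to 1.04) and ependymal and choroid plexus lists (from −1.14 to 0.16) turned, with none of their genes called lower. With them taken out of both classes, these medians were −0.59, −0.49, −0.55, −0.87 and −1.90 in the same order, so that none turned. Of 12 myeloid markers 11 were lower than in the other shallow cells (median −3.34), with a summed level of 192 to 457 CPM in the members and 1870 to 4347 CPM in the others. Compared with the deep cells, 5 myeloid markers were lower (median −1.52). That direction turned with the cells compared, since 10 of 12 were higher in the members than in Stmn2-positive deep cells without myeloid and precursor cells (median 2.32, a choice made after the data were seen) and 10 of 12 higher than in deep cells that pass the 8-gene rule (median 2.42). With cells of other types taken out of the other shallow cells, none of the 12 was called by edgeR there (median 0.30). None was called with them taken out of both classes either (median −0.70). The complement gene C1qb was lower by −3.83 ± 0.59 (adjusted p = 0.000609). Mural markers, of the cells around vessels, were lower for 7 of 10, with summed levels of 19.8 to 87.1 and 468 to 834 CPM, with the pericyte gene Rgs5 lower by −5.72 ± 0.60 (adjusted p = 3.71e-05). All 5 red blood cell genes were lower, with 0 to 940 CPM against 7.31 to 19947 CPM, among them the globin gene Hbb-bs (−6.80 ± 0.98, adjusted p = 0.000382). This list too turned with cells of other types taken out of the other shallow cells, from a median of −5.97 to one of 2.60, with 1 of 4 tested higher and none lower. With them taken out of both classes the median was −0.54, with none of 4 called. Red blood cell RNA was highest in tumour 2, in which shallow myeloid cells held 17201 CPM of it. Of 10 oligodendrocyte markers 4 were lower than in the other shallow cells, with a summed level of 152, 1096 and 0 CPM in the members, while 2 were higher and none lower than in the deep cells. Ependymal and choroid plexus markers stood at 11.3, 1190 and 0 CPM, and the 2 that were lower than in the other shallow cells were accompanied by 1 higher and 2 lower than in the deep cells. Astrocyte markers, at 627, 709 and 261 CPM, had 1 of 10 lower in each comparison, endothelial markers 1 and 0 of 10 (8 and 2 at an unadjusted p under 0.05), and fibroblast markers 4 and 2 of 5. Among 9 oligodendrocyte precursor markers 1 was higher in both, the proteoglycan gene Vcan (0.88 ± 0.27, adjusted p = 0.0336, and 0.86 ± 0.27, adjusted p = 0.0206), which was called in neither without tumour 2 (adjusted p = 0.273 and 0.251). Tumour 2 therefore carried most of the transcripts of other cell types found among the members.

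With both classes limited to cells without 2 markers of any other type, 155, 311 and 12 members and 1123, 779 and 1029 other shallow cells were left. That comparison was chosen after the data were seen. There 7 identity, 10 presynaptic, 6 glutamate receptor, 5 GABA, 11 channel and 11 adhesion genes were higher, 10 radial glia genes were lower, and of the immediate early and stress genes 6 were lower and 1 higher. With cells of other types taken out of the other shallow cells alone, the numbers higher were 5, 10, 7, 6, 11 and 12 in the same order, and 10 radial glia genes and 4 immediate early and stress genes were lower. With the other shallow cells drawn to the depth of the members, the numbers higher were 9, 9, 7, 3, 11 and 8 in the same order, 10 radial glia genes were lower and 11 immediate early and stress genes were lower. Among the genes lower than in the other shallow cells in 3 of 3 tumours, the leading 8 had no UMI in any member, so that the direction in tumour 3 is set by its lack of depth and cannot be read. They were at least 3.08-fold (the NF-kappa-B inhibitor gene Nfkbie) to at least 11.9-fold (the mural gene Higd1b) lower, with 3 counts over all members as the floor. The others were Ighm, AW112010, Atp13a5, Epsti1, Nrros and 9930111J21Rik2. The 8 that led the list of genes lower than in the deep cells had no member UMI either, with the same limit in tumour 3, and were at least 1.90-fold (Gbp2) to at least 4.25-fold (Ifit1) lower, both interferon-induced genes, with Ptgr1, Fignl1, Nrros, Bcl3 and Nfkbie among those between.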

How the data were processed

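Per the labels and the study's methods, the authors made the deposited counts with Cell Ranger 3.1.0 on mm10 from 10x 3′ libraries, as whole UMIs per gene and barcode, not normalized. Every barcode held at least 500. The members and the gene lists were chosen with earlier results of these data known. Of 31053 genes, 31011 had an identifier in GENCODE M21 (GRCm38).

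UMIs were summed per tumour for 4 classes (members, other shallow cells, Stmn2-positive deep cells, deep myeloid cells) and tested with edgeR 4.0.16 in R 4.3.3 (quasi-likelihood, TMM scaling, its default expression filter, class and tumour as terms, Benjamini-Hochberg adjustment over all genes tested). Sums of 1 tumour come from the same animal, which is the source of the block, and there are 3 animals. The 14 genes of the rule were kept out of the tests, and Stmn2 out of the comparison with the deep cells. An adjusted p under 0.05 is a call. CPM values are class sums scaled to 1000000 UMIs, without the TMM factors that the tests use. The TMM factor was 2.02 for the members of tumour 3 and 0.98 for its deep cells. Directions read from CPM in that tumour can therefore differ from those on the scale of the test. Differences are members minus the other class. Named genes are a fixed set of 30, leading called genes of each list (up to 3 per direction by rule, not all given), and, per comparison and direction, the 8 largest differences among genes called with the same sign in 3 of 3 tumours and at least 30 UMIs in the higher class, without mitochondrial and ribosomal protein genes. Other genes, those shown for RE1 among them, were chosen after their values were seen.

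Scrublet (scanpy 1.11.5) marked 0, 0 and 2 cells by its own threshold and so did not work, and no doublets were removed. Removing cells above a quantile of its score was an alternative. The tumours shared 22 to 42 barcodes in pairs and no member. Free RNA was not corrected for. On simulated counts of 13967 genes the test recovered 85.4% of changes of 4-fold and 23.7% of changes of 2-fold against the other shallow cells. Those counts had the same spread for every gene, no difference between tumours, and changes only in genes above a minimum mean level. Recovery below that level was not tested. In total 20 alternatives were run, DESeq2 1.42.0 among them, and 2 were chosen after the data were seen. The p-values rest on how the class differences vary between 3 tumours, with 1 estimate of that spread per gene shared by the 4 classes. Some genes of the lists and rankings are not reported here.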

Additional observations from a re-analysis of the deposited data

How the results depend on the processing

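With 1057 genes higher and 1589 lower than in the other shallow cells, and 2131 higher and 2797 lower than in the Stmn2-positive deep cells, the counts of called genes moved most with the block and with single tumours. Tumours are animals, so the replicate block pairs the class sums of 1 animal. Without the block, 294 were higher and 414 lower against the other shallow cells and 1357 and 1488 against the deep cells. Leaving out 1 tumour gave 219 to 1303 higher and 158 to 1745 lower against the other shallow cells, and 801 to 2311 and 1196 to 2756 against the deep cells, always fewest without tumour 1 or 2. Library sizes alone gave 1775 higher against the other shallow cells and 1840 lower against the deep cells. A mitochondrial limit of 10% gave 677 higher. Against other shallow cells without other cell types the counts were 577 and 827, with other shallow cells drawn to the members' depth 562 and 800, and with other types removed from both classes, a choice made after the data were seen, 506 and 823. The cause was not tested. Smarcb1 was called lower than in the other shallow cells with no filter (−1.87), at 10% mitochondrial UMIs (−8.11, from few counts) and beside deep cells that pass the gene rule (−1.89). It reversed to 0.25 with other cell types taken out of the other shallow cells, but not with them taken out of both classes (−0.85). Against the deep cells it reversed to 0.16 with thinned membership and to 1.14 against deep cells that pass the gene rule, none of these called. C1qb reversed to 0.15 and Hbb-bs to 2.00 with other cell types taken out of the other shallow cells, an alternative that takes the cells that carry them out of that class alone. The share of members was 16.4, 39.8 and 3.18% with 2 of the 8 genes, 4.75, 13.6 and 0.338% with 4, 5.12, 15.5 and 0.541% after thinning, and 6.35 and 19.2% in tumours 1 and 2 at 10% mitochondrial UMIs. Of the 103 differences of single genes given in the text, 57 stayed called without the block, 66, 68 and 101 without tumours 1, 2 and 3 (Grin1 and Nrg3 could not be tested without tumour 2), and 83 to 103 under each of the other alternatives. All others kept their direction. Depth limits tumour 3, whose members hold 22960 UMIs.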

Other observations

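Lin28b, which encodes an RNA-binding protein of fetal tissue, was at 19.8, 34 and 43.6 CPM in the members, 2.14, 5.91 and 1.46 CPM in the other shallow cells and 5.35, 6.26 and 2.61 CPM in the Stmn2-positive deep cells. It was above both classes in all 3 tumours, in tumour 3 on a single UMI. The differences were 2.70 ± 0.44 on the log2 scale (SE, edgeR adjusted p = 0.000946) and 1.98 ± 0.41 (adjusted p = 0.0018). It was the only 1 of 7 oncofetal genes called against the other shallow cells. Against the deep cells Igf2bp3, an RNA-binding protein gene, was also higher (0.76 ± 0.23, adjusted p = 0.0168) and the proto-oncogene Mycn lower (−1.38 ± 0.27, adjusted p = 0.0013). Without tumour 2, Lin28b (1.96, adjusted p = 0.11), Igf2bp3 (0.85, adjusted p = 0.158) and Mycn (−1.20, adjusted p = 0.0821) were not called against the deep cells, nor was Igf2bp3 without tumour 1 (0.80, adjusted p = 0.0687). Over all genes tested, 7.28% were higher than in the other shallow cells and 19.3% lower than in the deep cells. Of 14 genes of axial position 1 was higher than in the other shallow cells (list median −0.23), near that share, and 5 were lower than in the deep cells (median −0.87). The first was Pax5, a midbrain-hindbrain boundary gene (1.39 ± 0.40, adjusted p = 0.0246), not called without tumour 1 (1.35, adjusted p = 0.162) or tumour 2 (1.38, adjusted p = 0.193), and among the others was En1, a homeobox gene of that boundary, at a mean of 168 ± 32.7 CPM (SD, n = 3) in the members and 264 ± 137 CPM in the deep cells (−1.07 ± 0.18, adjusted p = 0.00041).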
